A study of Mus musculus with 8 samples.

Results

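The chaperones of the mouse lens were examined: the heat shock proteins of the Hsp90, Hsp110, Hsp70, Hsp60 and small classes, the Hsp40 (J protein) and BAG partners of Hsp70, Stip1, and the CCT (TRiC) chaperonin. Members were the genes on the MG-U74Av2 chip whose single gene symbol starts with Hspa, Hspb, Hspd, Hspe, Hsph, Hsp90, Dnaja, Dnajb, Dnajc or Bag, or with Cct and a digit from 2 to 8, or is Tcp1 or Stip1, each represented by its brightest probe set over the 8 arrays. The rule found 61 genes, from 90 probe sets, among 8251 genes with 1 symbol. Of these, 60 averaged above 50 in 1 or more of the groups and were tested, and Hspa1b did not. By family, 27 of the 61 were J proteins, 10 belonged to the Hsp70 family, 9 were CCT subunits, 6 were BAG proteins, Stip1 or Hspbp1, 4 were small heat shock proteins by symbol, 3 were Hsp90 or Hsp110 proteins and 2 formed the mitochondrial chaperonin. The families follow the symbols, so that Hspa4l, a relative of Hsp110, is counted in the Hsp70 family.

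The lenses came from mice of both sexes, 10 days old, in 4 groups of 2 arrays: C57BL/6J α3Cx46 KO, C57BL/6J wild type (WT), 129SvJae α3Cx46 KO and 129SvJae WT. α3Cx46 is a connexin, a gap junction protein of the lens fibers, and its gene is Gja3. The mice received no treatment, and each sample was RNA pooled from 20 to 30 lenses, so that the spread between the 2 arrays of a group is a spread between pools and not between animals. The study asked which transcripts differ between a strain in which the cataract of the KO is severe and a strain in which it is milder, and between KO and WT lenses, at an age before opacity is seen.

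Chaperones bind proteins that are unfolded or partly folded. Hsp70 takes up short unfolded stretches with the help of J proteins, BAG proteins and Hsp110 promote release of the bound nucleotide and client, Hsp90 acts late on signalling proteins, and the ring-shaped chaperonins enclose a whole protein while it folds. CCT folds actin and tubulin. Small heat shock proteins, to which the α-crystallins also belong, hold unfolded proteins without using ATP. In the lens, proteins of the fiber cells are not replaced, and aggregated protein scatters light, so these systems are commonly studied in cataract. Stress induction of many chaperone genes runs through heat shock factors, which bind inverted repeats of GAA in promoters.

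Every value is a MAS 5 signal, the brightness of a probe set on a linear scale on which the trimmed mean of an array is 250, and signals below 50 are near background. Between 54 and 56 members exceeded 50 on each array. Gja3, the disrupted gene, read 448 and 519 on the C57BL/6J KO arrays and 1968 and 3274 on the C57BL/6J WT arrays, and 472 and 445 on the 129SvJae KO arrays and 1100 and 3381 on the 129SvJae WT arrays. All 4 KO arrays were below all 4 WT arrays (log2 ratio -2.23, SE 0.29, limma adjusted p 0.016). The 7 markers of lens fiber cells and 6 of lens epithelium on the chip were above 50 on all arrays. Markers of blood, connective tissue, retina, pigment cells and macrophages on the chip had summed signals of at most 674, 1213, 928, 535 and 801 on any array, which are not set against those of other probe sets. In bulk RNA, fewer cells of a type and less RNA per cell cannot be told apart. All 4 replicate 1 arrays were scanned in 1 session, 3 replicate 2 arrays in another, and the replicate 2 array of 129SvJae WT in one of its own (3 sessions in all). The run record of the C57BL/6J WT replicate 1 array holds a fluidics communication error.

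No member passed an adjusted p of 0.05 in any of the 7 comparisons (limma over 10078 probe sets). For C57BL/6J over 129SvJae averaged over genotypes, 0 of 60 members were called, where 37 probe sets (0.367%) were called over the chip. For the same strain ratio the called share over the chip was 0.0695% within WT lenses and 0.0893% within KO lenses. For KO over WT it was 0.0198% averaged over strains, 0.00992% within C57BL/6J and 0% within 129SvJae, and for the interaction of strain and genotype it was 0%. A plain t-test, without limma's sharing of spread between probe sets, called none of the 60 members for the averaged strain ratio after Benjamini-Hochberg adjustment. By it 6 had an unadjusted p under 0.05, and the share over the chip was not counted. The study's own criteria differ: 2 groups at a time, a t statistic p of at most 0.01, a fold of at least 1.8 and a level above 50. At an unadjusted p under 0.05 by limma, 4 members (6.67%) were lower in C57BL/6J and 0 were higher, against 3.32% and 3.64% of probe sets over the chip. The total is close to that of the chip. The split was not stable to leaving out 1 array: it was 0 lower and 2 higher without 129SvJae KO replicate 2, and 1 lower and 1 higher without C57BL/6J WT replicate 1 or without C57BL/6J KO replicate 1. The median member log2 ratio was -0.07, against 0.01 for all probe sets tested.

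**Figure D1:**
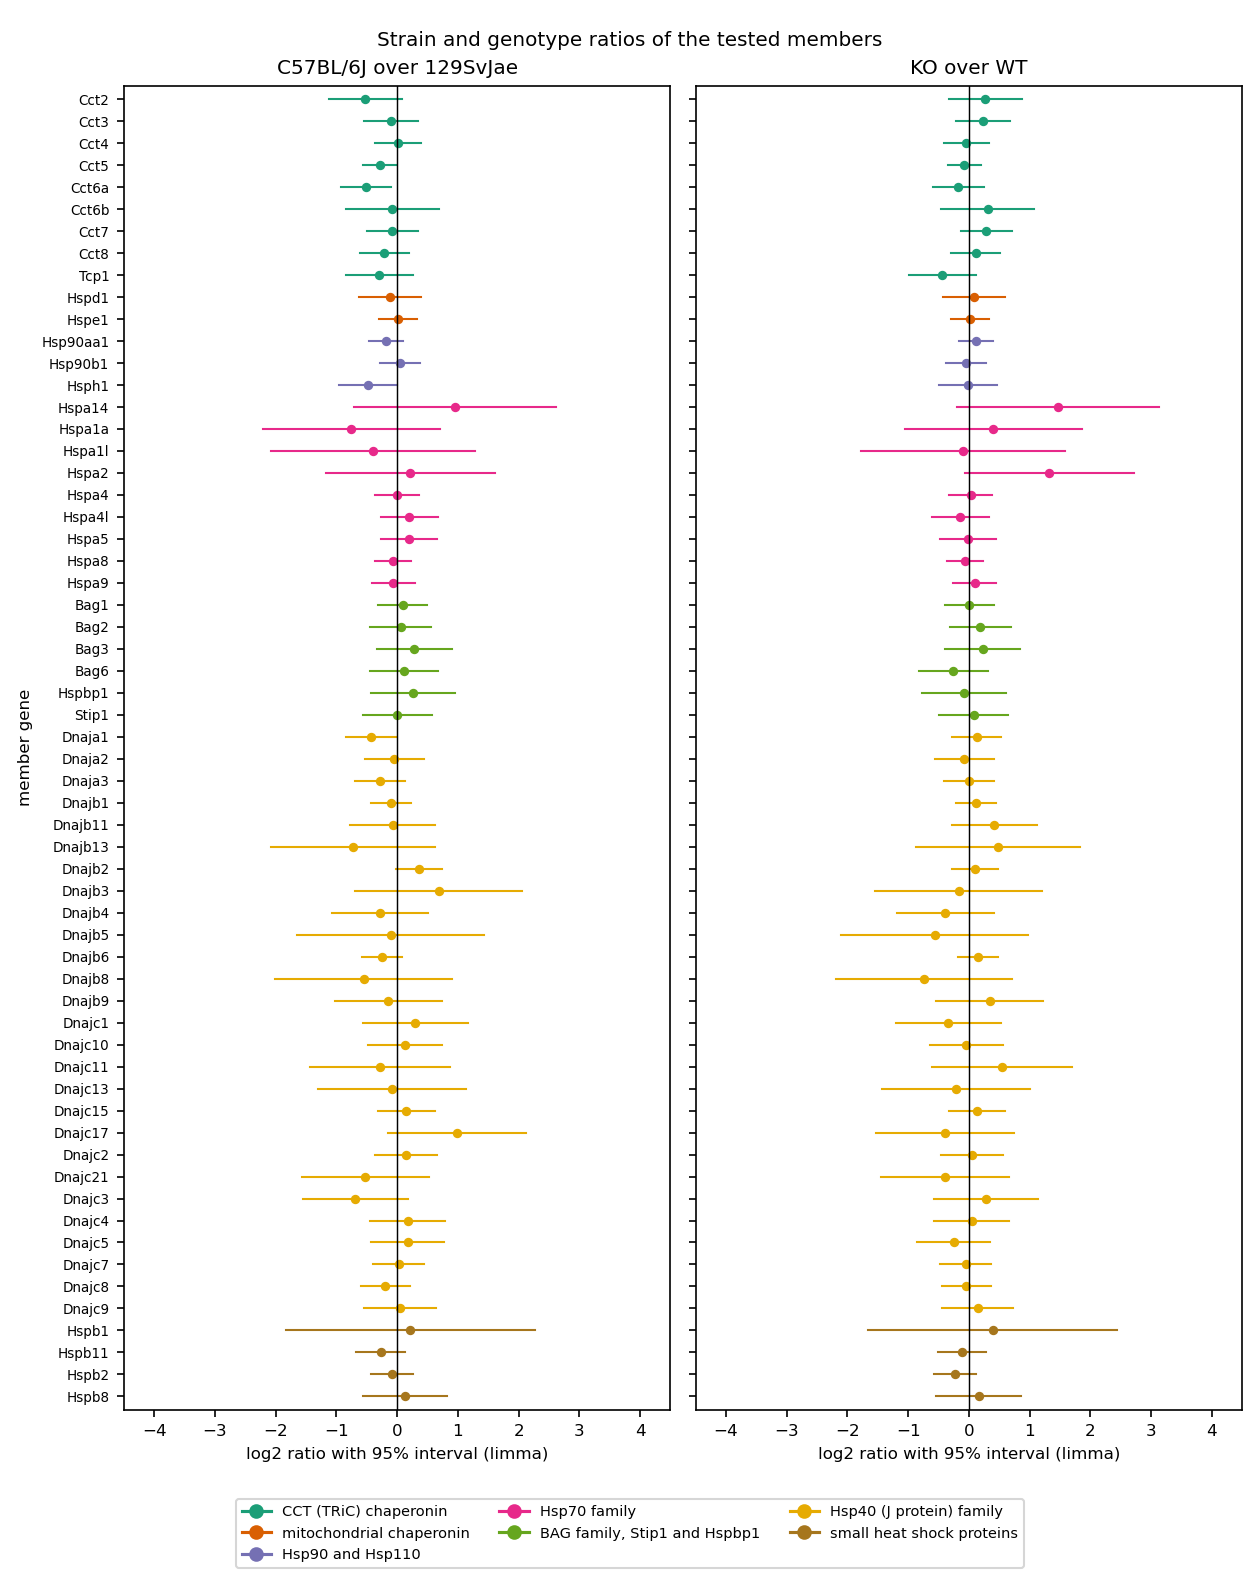
Log2 ratios of the 60 tested members with their 95% limma intervals, for C57BL/6J over 129SvJae averaged over genotypes (left) and KO over WT averaged over strains (right), with 1 row per gene and colour by family. No member was called in either comparison, and the widest intervals belong to dim members such as Hspb1, Hspa14 and Hspa1l.

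The CCT chaperonin held the member with the smallest p. CCT is a double ring of different subunits, named Tcp1 and Cct2 to Cct8. Cct6a, which encodes one of them, read 525 and 529 on the C57BL/6J KO arrays and 493 and 655 on the C57BL/6J WT arrays, and 686 and 763 on the 129SvJae KO arrays and 994 and 728 on the 129SvJae WT arrays. All 4 C57BL/6J arrays were below all 4 129SvJae arrays, in both genotypes. The averaged ratio was 1.43-fold lower in C57BL/6J (log2 -0.52, SE 0.19, limma p 0.018, adjusted p 0.515), and it was -0.70 over the replicate 1 arrays and -0.34 over the replicate 2 arrays. The probe set carries the suffix given to those that may read related transcripts. A second Cct6a probe set exceeded 50 on 1 array and ran the other way (log2 0.42, SE 0.67), so the strain difference rests on 1 probe set.

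Cct5, another subunit, read 4580 and 4745 in C57BL/6J KO and 4335 and 4915 in C57BL/6J WT, against 5254 and 5409 in 129SvJae KO and 5991 and 5989 in 129SvJae WT. Again no C57BL/6J array reached a 129SvJae array. The C57BL/6J level was 1.22-fold lower (log2 -0.28, SE 0.13, limma p 0.042, adjusted p 0.698). A dimmer second probe set of Cct5 pointed the same way (log2 -0.57, SE 0.27, limma p 0.054), and there the 994 and 584 of 129SvJae WT stood above the other 6 arrays, which lay between 233 and 411. Cct2 read 379 and 389 in C57BL/6J KO and 187 and 462 in C57BL/6J WT, against 508 and 512 in 129SvJae KO and 380 and 552 in 129SvJae WT. Its ratio was as large as that of Cct6a (log2 -0.52, SE 0.28, limma p 0.084, adjusted p 0.801). However, the 187 of C57BL/6J WT replicate 1 lay far from its partner, and the strains overlapped. Whether the fluidics error of that array bears on the 187 was not tested. Without that array the Cct2 ratio was -0.20. Over the whole complex, 8 of the 9 tested genes had an averaged ratio below 0 and the median was -0.21. The median was -0.07 within WT lenses and -0.30 within KO lenses, and 4 of the 9 had the same sign in both. Cct4 had the single averaged ratio above 0 (log2 0.02, SE 0.17). Tcp1 (-0.30, SE 0.26), Cct8 (-0.21, SE 0.19), Cct3 (-0.10, SE 0.21), Cct6b (-0.08, SE 0.35) and Cct7 (-0.08, SE 0.19) lay between, none past the test. Cct6b is a form of Cct6 known from testis.

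**Figure D2:**
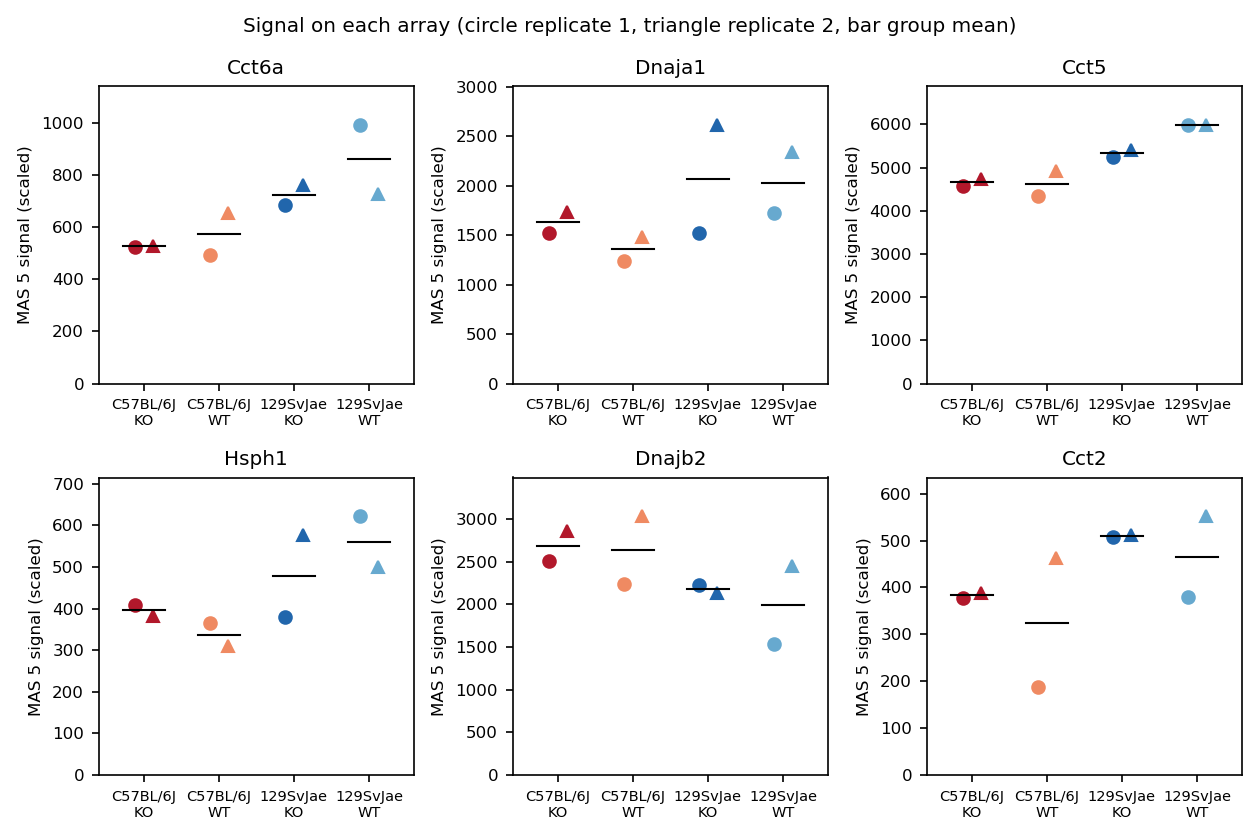
MAS 5 signals (linear axis from 0) of the 6 members with the smallest unadjusted p for strain, on each array, with circles for replicate 1, triangles for replicate 2 and bars for group means. The strains do not overlap for Cct6a and Cct5, and overlap for Dnaja1, Hsph1, Dnajb2 and Cct2.

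The 4 members with an unadjusted p under 0.05 were completed by Dnaja1 and Hsph1, both partners of Hsp70. Dnaja1, a cytosolic J protein, read 1519 and 1738 in C57BL/6J KO and 1240 and 1480 in C57BL/6J WT, against 1523 and 2616 in 129SvJae KO and 1728 and 2336 in 129SvJae WT. It was lower in C57BL/6J in 4 of 4 pairs of equal genotype and replicate number (log2 -0.43, SE 0.19, limma p 0.040, adjusted p 0.690), and the replicate 2 array was the higher one in all 4 groups. Hsph1, the Hsp110 that exchanges nucleotide on Hsp70, read 410 and 383 in C57BL/6J KO and 364 and 310 in C57BL/6J WT, against 380 and 576 in 129SvJae KO and 622 and 499 in 129SvJae WT. Its ratio was -0.48 (SE 0.22, limma p 0.046, adjusted p 0.701), with 3 of 4 pairs lower, and in WT lenses alone it was -0.73 (SE 0.31, adjusted p 0.751). The 380 of 129SvJae KO replicate 1 fell within the C57BL/6J range. Dnajb2, a J protein with ubiquitin-binding motifs, was the nearest on the higher side. It read 2508 and 2862 in C57BL/6J KO and 2238 and 3034 in C57BL/6J WT, against 2226 and 2132 in 129SvJae KO and 1531 and 2446 in 129SvJae WT (log2 0.36, SE 0.18, limma p 0.058, adjusted p 0.736). It was higher in C57BL/6J in 4 of 4 pairs, although the strains overlapped.

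Separation without overlap between the 4 arrays of each strain was found for 4 of 60 members lower in C57BL/6J (6.67%, against 2.62% of all probe sets) and for 0 higher (against 2.95%). Beside Cct6a and Cct5 these were Dnaja3, the mitochondrial J protein (log2 -0.28, SE 0.19, limma p 0.162), and Dnajb6, a J protein that holds back aggregation of polyglutamine (log2 -0.25, SE 0.15, limma p 0.127). Dnaja3 read from 451 to 462 on the C57BL/6J arrays and from 508 to 609 on the 129SvJae arrays. The sign of the strain ratio was the same in WT and KO lenses for 35 of 60 members, against 55.2% of all probe sets.

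Hspb1, the gene of the small heat shock protein Hsp25, was hardly read by this chip. It read 121 and 26 in C57BL/6J KO and 15 and 11 in C57BL/6J WT, against 7 and 33 in 129SvJae KO and 101 and 13 in 129SvJae WT. Only 2 of the 8 arrays passed 50, and each had a partner of the same group below it. The strain ratio was 0.22 with an SE of 0.95 and a 95% interval from -1.83 to 2.27 on the log2 scale, which leaves a several-fold difference in either direction undetectable here. The study's text counts Hsp25 as not on the chip, while the annotation used here assigns this 1 probe set to it. By real-time PCR the study's text gives the Hsp25 transcript as higher in C57BL/6J lenses in both genotypes, and it cites proteomic work for the same direction. The array interval is too wide to decide on that difference. The inducible Hsp70 pair, Hspa1a and Hspa1b, are near-identical copies, so the signal of one cannot be safely parted from that of the other. Hspa1a read 91 and 55 in C57BL/6J KO and 9 and 59 in C57BL/6J WT, against 45 and 60 in 129SvJae KO and 122 and 67 in 129SvJae WT. Hspa1b read at most 63 on any array. None of these genes separated the groups, and the Hsp70 family had its strain extremes among the dim members, with Hspa14 at 0.96 (SE 0.77) and Hspa1a at -0.75 (SE 0.68).

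**Figure D3:**
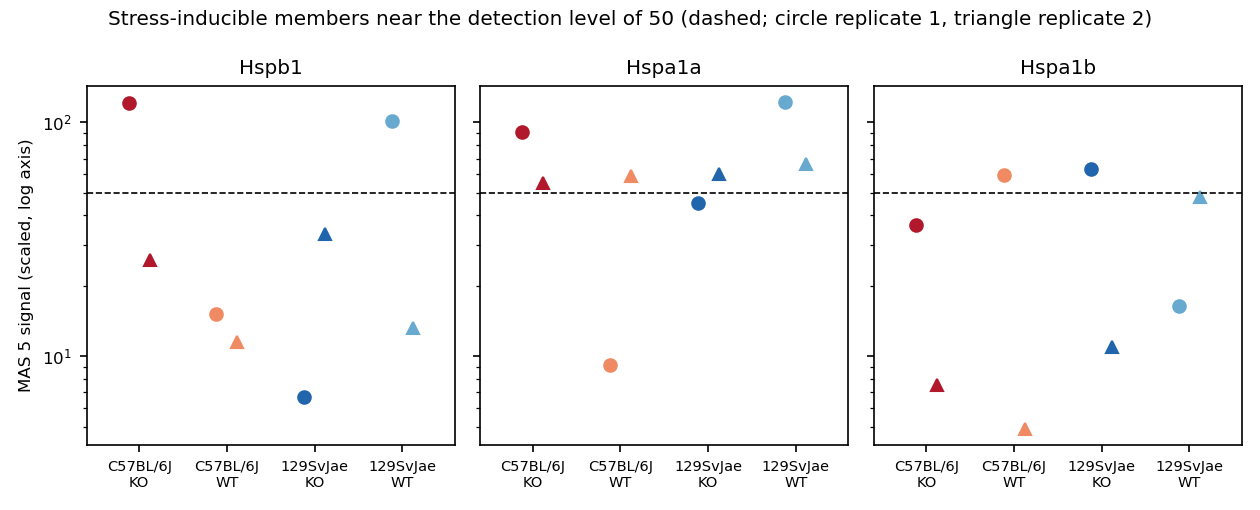
MAS 5 signals (log axis) of Hspb1, Hspa1a and Hspa1b on each array, with circles for replicate 1, triangles for replicate 2 and a dashed line at 50. Only 2 Hspb1 signals lie above the line, and arrays of the same group lie on both sides of it.

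The constitutive and compartment chaperones were read well and showed narrow intervals. Hspa8, the constitutive cytosolic Hsp70, read 4220 and 3939 in C57BL/6J KO and 3718 and 4824 in C57BL/6J WT, against 4201 and 4302 in 129SvJae KO and 4343 and 4514 in 129SvJae WT (strain log2 -0.06, SE 0.14). Hsp90aa1, the inducible form of cytosolic Hsp90, had a strain ratio of -0.19 (SE 0.13), Hsp90b1 of the endoplasmic reticulum 0.04 (SE 0.15), and Hspa5, the BiP of the same compartment, 0.20 (SE 0.22). In mitochondria, Hspa9 had -0.06 (SE 0.17), and Hspd1 and Hspe1, the Hsp60 and Hsp10 of the chaperonin, had -0.12 (SE 0.24) and 0.02 (SE 0.14). None of these passed the test, and their arrays overlapped between strains. Hspb2, a small heat shock protein gene, read between 3905 and 6982 (strain log2 -0.09, SE 0.16). Its gene lies within the annotated span of Cryab, the αB-crystallin gene, in the gene table used here, and its second, dimmer probe set had a ratio of the other sign (0.25, SE 0.22), neither past the test. Whether the bright Hspb2 probe set also reads Cryab RNA was not tested. Among the other small members, Hspb8, a partner of Bag3, had 0.13 (SE 0.32), and Hspb11, which bears the name but works in cilia, had -0.27 (SE 0.18).

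The BAG proteins and the other Hsp70 cofactors were the family furthest on the other side: all 6 ratios were above 0, with a median of 0.10, and none had an unadjusted p under 0.05. They ran from 0.00 for Stip1, which hands clients on from Hsp70 to Hsp90 (SE 0.26), to 0.28 for Bag3, which links Hsp70 to autophagy (SE 0.29). A dimmer Bag3 probe set ran the other way (-1.15, SE 0.65, limma p 0.102). Hspbp1, an Hsp70 nucleotide exchange factor that enters by the letters of its symbol, had 0.26 (SE 0.32). Of the 27 J proteins, 16 were below 0 and 11 above, with a median of -0.09. Their extremes were Dnajc17, a nuclear J protein, at 0.98 (SE 0.53), and Dnajb13, a sperm J protein, at -0.73 (SE 0.63). In WT lenses Dnajc17 had the smallest p of all members (log2 1.85, SE 0.74, limma p 0.027, adjusted p 0.739). In KO lenses it read 73 and 220 in C57BL/6J against 68 and 205 in 129SvJae. In WT lenses it read 491 and 189 in C57BL/6J against 52 and 137 in 129SvJae. The 491 was on C57BL/6J WT replicate 1, and without that array the WT ratio was 1.16. Whether the fluidics error of that array bears on the 491 was not tested. Within WT lenses 3 of 60 members (5%) had an unadjusted p under 0.05, against 6.47% over the chip. With the replicate block 8 did, and the share over the chip was not counted there. Within KO lenses the count without a block was 0 of 60, against 3.73% over the chip. The lowest p there were those of Cct6a (-0.46, SE 0.27, limma p 0.116) and Cct8 (-0.43, SE 0.26, limma p 0.127). Cct8 read 1157 and 1451 in C57BL/6J KO against 1584 and 1924 in 129SvJae KO. In WT lenses it read 1120 and 1737 in C57BL/6J against 1193 and 1604 in 129SvJae.

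For KO over WT, 0 of 60 members had an unadjusted p under 0.05, against 3.05% over the chip, and the median was 0.02. Without C57BL/6J WT replicate 2 it was 5 members, all higher in KO, and with the scan session as a block 4 members. The shares over the chip were not counted under these settings. Each setting left 1 group with 1 array to inform the ratio, so nothing is concluded from the counts. In the main fit the smallest p belonged to dim members of the Hsp70 family. Hspa2, a form known from testis, read 167 and 49 in C57BL/6J KO against 24 and 57 in C57BL/6J WT. In 129SvJae it read 98 and 65 in KO against 20 and 49 in WT (log2 1.32, SE 0.64, limma p 0.060, adjusted p 0.998). Hspa14, which acts at the ribosome, read 78 and 61 in C57BL/6J KO against 11 and 53 in C57BL/6J WT. In 129SvJae it read 28 and 41 in KO against 11 and 14 in WT (log2 1.47, SE 0.77, limma p 0.078), so that 3 of its 8 signals passed 50. Of the brighter members, Tcp1 was lower in KO in 4 of 4 pairs (-0.44, SE 0.26, limma p 0.112), Cct7 had 0.29 (SE 0.19) and Hspb2 -0.23 (SE 0.16). Tcp1 read 207 and 348 in C57BL/6J KO against 328 and 558 in C57BL/6J WT. In 129SvJae it read 360 and 418 in KO against 430 and 463 in WT. Cct7 read 2811 and 3745 in 129SvJae KO against 1926 and 2691 in 129SvJae WT (log2 0.51, SE 0.27, limma p 0.081), and in C57BL/6J it read 2246 and 3102 in KO against 2014 and 3136 in WT (0.07). Hspb2 read 4746 and 3905 in 129SvJae KO against 6982 and 4504 in 129SvJae WT (log2 -0.38, SE 0.23), and without the 6982 of replicate 1 its ratio was -0.07. In C57BL/6J it read 4527 and 4443 in KO against 5128 and 4412 in WT. Bag2, which inhibits the ubiquitin ligase Stub1, was the 1 member whose KO arrays all exceeded its WT arrays on the probe set that stands for it (1.67% of members, against 0.972% of all probe sets). Its signals were 295 and 367 in C57BL/6J KO and 300 and 288 in 129SvJae KO, against 273 and 264 in C57BL/6J WT lenses and 288 and 269 in 129SvJae WT lenses, so the lowest KO array passed the highest WT array by less than the spread of the group (log2 0.19, SE 0.23). The other 2 Bag2 probe sets had ratios of the other sign. The brighter of them read 219 and 173 in C57BL/6J KO and 116 and 153 in 129SvJae KO, against 204 and 277 in C57BL/6J WT lenses and 330 and 221 in 129SvJae WT lenses (log2 -0.65, SE 0.30, limma p 0.047, adjusted p 0.998), and the dimmer had -0.57 (SE 0.74). The Bag2 probe sets thus disagree on the direction, and none was called. No member had all KO arrays below all WT arrays, against 1.22% of probe sets.

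1 member (1.67%) had an unadjusted p under 0.05 for the interaction, against 2.11% of the chip. Hspa4l, a relative of Hsp110, read 276 and 343 in C57BL/6J KO and 522 and 458 in C57BL/6J WT, against 408 and 365 in 129SvJae KO and 277 and 317 in 129SvJae WT. In C57BL/6J both KO arrays were below both WT arrays (log2 -0.67, SE 0.31, limma p 0.050), and in 129SvJae both were above (0.38, SE 0.31). The interaction was -1.05 (SE 0.44, limma p 0.032, adjusted p 0.9998). Dnajc2, a ribosome-bound J protein, came next with -0.97 (SE 0.47, limma p 0.060), from 289 and 431 in C57BL/6J KO and 572 and 395 in C57BL/6J WT, against 403 and 490 in 129SvJae KO and 324 and 289 in 129SvJae WT. The interaction of Hspb1 was 3.38 with an SE of 1.90.

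The size of difference that these arrays could show followed the signal. The intervals come from the fit without a block, in which a shift between replicate numbers counts as spread. The 95% interval of the averaged strain ratio lay within 1.8-fold in either direction for 37 of 60 members (61.7%), against 29.1% of all probe sets. That of the averaged KO ratio did so for 36 (60%, against 33.1%). The strain interval did so for 23 (38.3%, against 12.9%) within WT lenses and for 17 (28.3%, against 13.9%) within KO lenses. By level, the averaged strain interval lay within 1.8-fold for 16 of 16 members with a mean signal above 1000. It did so for 21 of 35 between 100 and 1000, and for 0 of 9 below 100. The median SE was 0.16, 0.27 and 0.67 in these classes. For the brightest 16, averaged strain differences beyond 1.8-fold therefore fell outside the interval. For each of the dimmest 9 the interval still held a difference of that size.

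Part of the members also differed between the 2 arrays of a group. Set against each other over the 4 groups, replicate 2 over replicate 1, 10 of 60 members (16.7%) were higher and 3 (5%) lower at an unadjusted p under 0.05, against 6.4% and 8.42% over the chip, and none of either was called (0% and 0.00992% over the chip). This comparison was added after the values had been seen, and replicate number and scan session nearly coincide, so that they cannot be told apart. Of all tested members, 12 of 60 were higher and 2 lower on the replicate 2 array in all 4 groups, against 9.53% and 14.5% of all probe sets. The CCT subunits had the highest median of the 7 families, 0.42, and 5 of 9 were higher on the replicate 2 array in all 4 groups. Cct3 read 3304 against 2545 in C57BL/6J KO, 3537 against 2043 in C57BL/6J WT, 4090 against 2790 in 129SvJae KO and 3204 against 2211 in 129SvJae WT, replicate 2 against replicate 1 (log2 0.56, SE 0.11, limma adjusted p 0.139). Cct7 (0.50, SE 0.11), Cct8 (0.42, SE 0.13), Hspd1 (0.57, SE 0.17) and Stip1 (0.60, SE 0.19) were likewise higher on the replicate 2 array of all 4 groups, and Hspbp1 was lower in all 4 groups (-0.83, SE 0.21). The summed fiber markers moved the other way in all 4 groups, and lay between 195500 and 272372 on the replicate 2 arrays and between 259026 and 374211 on the replicate 1 arrays. Their part in the chaperone values was not tested.

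**Figure D4:**
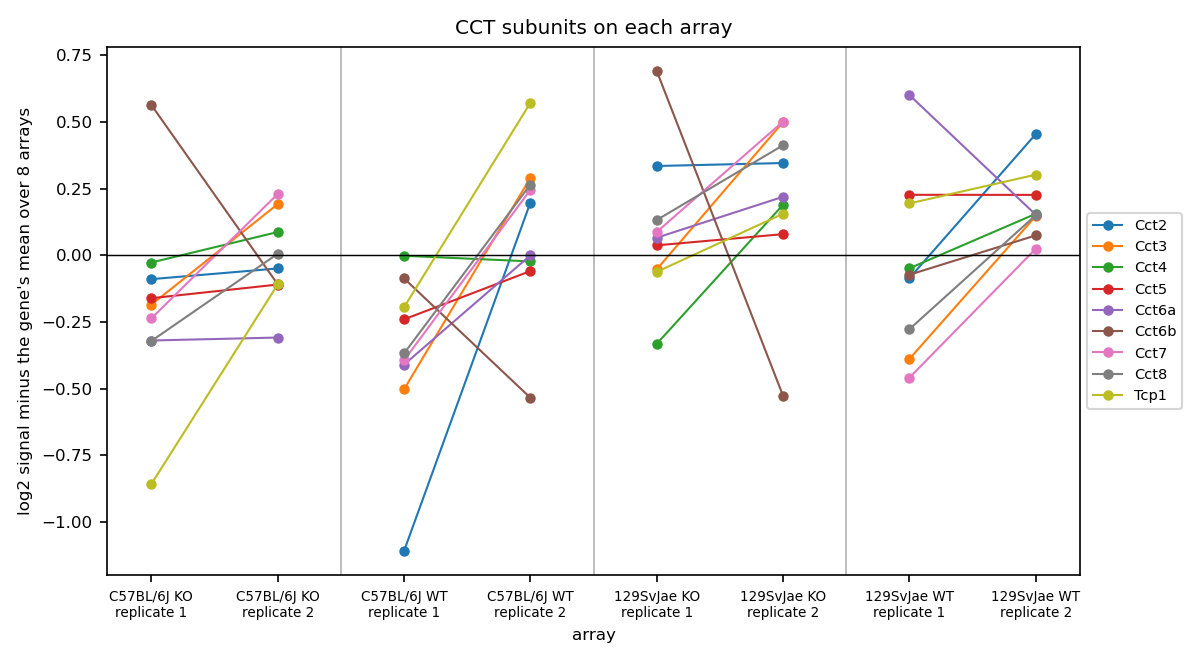
Log2 signal of the 9 CCT genes on each array, minus the mean of the gene over the 8 arrays, with lines joining the 2 arrays of a group. Most lines climb to replicate 2, and Cct3, Cct7, Cct8, Tcp1 and Cct2 do so in all 4 groups.

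Promoters were read from RefSeq on GRCm38.p6, as 300 bases from 250 before to 50 after a transcript start, on the strand of the gene, for the 53 of 61 members found there. A gene with several windows was counted where any of them held a match. A pair of heat shock units, GAANNTTC or TTCNNGAA, occurred for 15 of the 53 (28.3%), against 17% of 27025 genes. The first form occurred for 11 (20.8%, against 9.04%) and the second for 8 (15.1%, against 9.6%), and both read the same on either strand. An element of 3 alternating units, each 2 bases apart, was found for 4 members (7.55%, against 0.662%): Dnajb6, Hspd1, Hspe1 and Hsph1. Both forms of pair overlap within such an element. Hsph1, Cct6a, Cct5 and Hspb1 lead the comparisons above or mark the group. Their windows are shown with matches in capitals, for Cct5 the window that holds a match. They lie at chr5:149636266-149636565 (minus strand), chr5:129787106-129787405 (plus), chr15:31601797-31602096 (minus) and chr5:135887669-135887968 (plus).
Hsph1: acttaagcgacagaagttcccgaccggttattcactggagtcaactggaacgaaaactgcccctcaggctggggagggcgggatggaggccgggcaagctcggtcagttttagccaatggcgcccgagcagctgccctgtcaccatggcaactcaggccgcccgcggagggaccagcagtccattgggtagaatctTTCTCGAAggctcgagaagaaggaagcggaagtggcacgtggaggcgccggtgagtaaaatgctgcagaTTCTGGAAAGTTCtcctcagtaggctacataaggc
Cct6a: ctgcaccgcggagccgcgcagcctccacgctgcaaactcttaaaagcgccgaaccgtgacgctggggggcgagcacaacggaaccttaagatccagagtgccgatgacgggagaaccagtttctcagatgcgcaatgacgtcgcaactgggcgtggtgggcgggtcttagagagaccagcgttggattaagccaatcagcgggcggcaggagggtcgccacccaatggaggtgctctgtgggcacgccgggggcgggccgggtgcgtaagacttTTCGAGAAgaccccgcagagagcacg
Cct5: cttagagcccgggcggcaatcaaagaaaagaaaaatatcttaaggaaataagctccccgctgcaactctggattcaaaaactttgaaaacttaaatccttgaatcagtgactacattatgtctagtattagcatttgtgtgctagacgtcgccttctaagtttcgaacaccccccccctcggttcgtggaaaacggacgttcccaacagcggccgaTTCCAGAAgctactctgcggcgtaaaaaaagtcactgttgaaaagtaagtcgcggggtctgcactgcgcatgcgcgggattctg
Hspb1: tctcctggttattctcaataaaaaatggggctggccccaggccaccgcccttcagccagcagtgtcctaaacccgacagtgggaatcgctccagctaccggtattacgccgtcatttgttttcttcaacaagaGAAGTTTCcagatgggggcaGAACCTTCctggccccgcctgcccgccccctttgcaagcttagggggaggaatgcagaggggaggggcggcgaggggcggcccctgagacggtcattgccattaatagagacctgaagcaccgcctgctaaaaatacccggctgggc

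Hspd1 and Hspe1 are neighbours that start in opposite directions, and their windows share 1 element, read here from the Hspe1 side at chr1:55087898-55088197 (plus strand). Hspd1 read between 811 and 1779 and Hspe1 between 2381 and 2950 over the 8 arrays, and their strain ratios were both near 0.
Hspe1: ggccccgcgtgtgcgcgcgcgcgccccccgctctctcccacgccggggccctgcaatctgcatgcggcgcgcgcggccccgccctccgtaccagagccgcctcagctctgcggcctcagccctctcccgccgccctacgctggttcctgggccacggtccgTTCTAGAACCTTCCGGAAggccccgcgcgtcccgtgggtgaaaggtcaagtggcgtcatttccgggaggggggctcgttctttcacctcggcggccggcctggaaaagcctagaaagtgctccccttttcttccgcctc

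The element of the unfolded protein response, CCAAT and CCACG with 9 bases between them, searched on both strands, was found for 3 members (5.66%, against 0.137% of genes): Hspa5, Hsp90b1 and Dnajc3, an endoplasmic reticulum J protein that inhibits the kinase Eif2ak3. The Hspa5 window at chr2:34771840-34772139 (plus strand) is shown as the example with 1 match.
Hspa5: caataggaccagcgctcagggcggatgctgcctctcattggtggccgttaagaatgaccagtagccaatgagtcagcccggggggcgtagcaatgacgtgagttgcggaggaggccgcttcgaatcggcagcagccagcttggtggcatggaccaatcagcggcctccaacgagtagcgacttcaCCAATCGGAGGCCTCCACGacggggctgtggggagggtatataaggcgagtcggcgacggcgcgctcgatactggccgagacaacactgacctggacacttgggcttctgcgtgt
Hspa5 read 803 and 763 in C57BL/6J KO and 765 and 790 in C57BL/6J WT, against 477 and 945 in 129SvJae KO and 652 and 728 in 129SvJae WT, and Dnajc3 had a strain ratio of -0.69 (SE 0.40, limma p 0.108). None of the 3 members passed the test for strain. A match is a description of letters in the window and does not show that a factor binds there.

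The 4 members with an unadjusted p under 0.05 for strain, Cct6a, Dnaja1, Cct5 and Hsph1, each had a window with a heat shock pair, as did Cct2. Dnaja1, Cct5 and Cct2 also had windows without one. Among the tested members with a promoter, the 14 with a pair had a median strain ratio of -0.27, with 9 below 0, and the 38 without had -0.03, with 20 below 0. The medians were -0.39 and -0.01 in WT lenses and -0.14 and -0.04 in KO lenses, and -0.21 and -0.04 over the replicate 1 arrays and -0.26 and -0.01 over the replicate 2 arrays. The members named first were picked by these same ratios, and the split was made after the ratios had been seen and is given without a test. Other genes of the chip were not split in this way, so nothing is concluded from it. The median signals of the classes were 432 and 377.

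The genes around the chaperones were taken from lists written with the earlier results known. None was called for strain or KO. Of the heat shock factors on the chip, Hsf4, the factor of the lens, read 1135 and 1861 in C57BL/6J KO and 1667 and 2145 in C57BL/6J WT, against 1860 and 1142 in 129SvJae KO and 996 and 1526 in 129SvJae WT (log2 0.31, SE 0.22, adjusted p 0.886). Hsf2 was near background (-0.58, SE 0.67), and Hsbp1, which binds the factors and inhibits them, had -0.19 (SE 0.22). Of 15 further cochaperones tested, 1 was higher and 1 lower in C57BL/6J at an unadjusted p under 0.05. Stub1, the ubiquitin ligase CHIP that marks Hsp70 clients, read 1894 and 2422 in C57BL/6J KO and 2058 and 2488 in C57BL/6J WT, against 1591 and 1837 in 129SvJae KO and 985 and 1523 in 129SvJae WT (log2 0.61, SE 0.18, adjusted p 0.293). Every C57BL/6J array was above every 129SvJae array. Sugt1, an Hsp90 cochaperone, had -0.48 (SE 0.19, adjusted p 0.576).

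None of 9 prefoldin and tubulin cofactor genes, which serve CCT, had an unadjusted p under 0.05 (median -0.11). Of 19 genes of folding in the endoplasmic reticulum, Serpinh1, the collagen chaperone Hsp47, had 1.18 (SE 0.39, adjusted p 0.417) and Txndc12, a thioredoxin of that compartment, -0.51 (SE 0.18, adjusted p 0.449). The Serpinh1 ratio leaned on 175 on the 129SvJae WT replicate 1 array, against 966 to 1616 on the other 7. Of 8 genes of the unfolded protein response, Atf5 had 0.91 (SE 0.25, adjusted p 0.225), with 478 and 473 in C57BL/6J KO and 372 and 705 in C57BL/6J WT, against 241 and 282 in 129SvJae KO and 266 and 267 in 129SvJae WT, and Asns had -0.47 (SE 0.17, adjusted p 0.471). Atf5 is a stress-responsive transcription factor and Asns makes asparagine. From these arrays the study's text gives Hsf4b and Atf5 as higher in C57BL/6J lenses, still to be checked by real-time PCR. Neither Hsf4 nor Atf5 passed the test here. The α-crystallin genes Cryaa and Cryab, the most abundant chaperones of the lens, had strain ratios of 0.09 (SE 0.22) and 0.16 (SE 0.14).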

How the data were processed

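Lens RNA was hybridized to MG-U74Av2 chips by the authors, who deposited an intensity for each probe set: the signal of Microarray Suite 5.0 (genome build not given in the sources used here), scaled to a mean of 250. The sample labels gave the groups and the replicate numbers. Each deposited intensity was rescaled to a trimmed mean of 250 (2% off each end), 1 signal at or under 0 was set to 1, and log2 values were fitted with limma 3.58.1 in R 4.3.3 as 4 group means with a variance trend. Probe sets with a mean above 50 in a group were tested (10078 of 12488, 66 controls left out), with Benjamini-Hochberg adjustment at 0.05 over all of them. Signals of different probe sets are not comparable as levels.

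Members, gene lists and tests were chosen with earlier results of these data known. Probe sets with several symbols were left out (2 of them would have met the letters of the rule). Members named with array values were Hspb1 and Cct6a, the 6 smallest p for the averaged strain ratio, the 5 for the averaged KO ratio and the 2 in each further comparison. In addition, the extremes of each family and all of CCT, Hsp90 and the mitochondrial chaperonin were named. Dnaja3, Bag2, Cct3, Hspa1a, Hspa1b, Hspa5 and Hspa8 were added after their values were seen. Deviations of arrays with the same replicate number correlated with r of 0.13 to 0.21 in 6 of 6 pairs of groups. The numbers were therefore taken to pair the arrays. Arrays of the same number shared a scan session, except the replicate 2 array of 129SvJae WT. The main fit used no block, and the replicate block was an alternative. The number of arrays limits the precision. Tests were tried on simulated data. Other scalings, an offset of 16, a floor of 50, other filters and blocks were tried. So were the plain t-test, averaging of probe sets and leaving out each array.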

Additional observations from a re-analysis of the deposited data

Results flagged for a closer look

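Hspa4l, a relative of Hsp110, was the 1 member whose strain difference ran opposite ways in the 2 genotypes with no overlap of arrays: the log2 ratio of C57BL/6J over 129SvJae was -0.33 in KO lenses and 0.72 in WT lenses. The difference of these ratios was -1.05 (limma p 0.032, adjusted p 0.9998), so it did not pass the test of the difference. Opposite separation of this kind was shown by 313 of the 10078 probe sets (3.11%).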

How the results depend on the processing

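No member was called in any of the 7 comparisons under any of the alternatives. The replicate 2 array of 129SvJae WT was alone in its scan session. Blocking by session therefore left 129SvJae WT with 1 array to inform the ratios, much as leaving that array out did. The session counts below come from such a fit, and nothing is concluded from them. With the replicate block, 0 members were called, the lowest adjusted p was 0.273, and 5 members had an unadjusted p under 0.05 for strain, against 4 without it. Over all probe sets, the averaged strain comparison called 37. It called 58 with the replicate block, 86 with the scan session and 19 with arrays centred on the median. It called 1 each without the variance trend and with the plain t-test. The count of members at an unadjusted p under 0.05 for strain was 1 with centring on the median, 0 without the trend and 7 with the scan session. It ran from 1 (without C57BL/6J KO replicate 2) to 8 (without C57BL/6J WT replicate 2) with an array left out. Within WT lenses that count was 3, and 8 with the replicate block, 12 with the scan session, 7 without 129SvJae WT replicate 2 and 8 without C57BL/6J WT replicate 2. For KO over WT it was 0, and 4 with the scan session and 5 without C57BL/6J WT replicate 2. Shares of the chip at an unadjusted p under 0.05 were not counted under the alternatives, so these member counts are not set against them. Within WT lenses the called probe sets over the chip also rose, from 7 to 16 with the replicate block and 38 with the scan session. The Hspb1 strain ratio changed sign to -0.49 when the scan session was blocked, and ran from -0.52 to 0.95 with an array left out. In the session fit the 129SvJae WT level rested on the replicate 1 array, which read 101, and not on replicate 2, which read 13. What else moved the ratio was not tested. Of 465 ratios of named members under alternatives, 461 kept their direction and side of the threshold. Centring on the median moved the median KO ratio of all probe sets to 0.08, against -0.02, and with it that of the members to 0.12, against 0.02. The small heat shock protein strain median of 0.02 changed sign without 129SvJae WT replicate 2 (-0.26). Signals under 50 and 2 pools a group limit what can be seen.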
